A study of Mus musculus with 6 samples.

Results

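The unfolded protein response and the integrated stress response were followed through 32 genes, taken by symbol from a list of their sensors, transcription factors, chaperones and target genes. All 32 were found among the 18193 genes named on the arrays, with 78 probe sets, each a group of short probes read as 1 signal. All 32 passed the level filter with their brightest probe set. The question was which genes are regulated by the related histone acetyltransferases PCAF and GCN5, studied in immortalized mouse embryonic fibroblasts (MEFs), which are connective tissue cells kept in culture. The 3 GCN5-/- arrays were PCAF-/-;GCN5-/- cells and the 3 GCN5+/- arrays PCAF-/-;GCN5+/- cells, all untreated and puromycin-selected. Both genotypes thus lacked PCAF (gene Kat2b), and no array had wild-type PCAF. Each genotype had 2 arrays from a first immortalized line (line A, arrays A1 and A2, RNA prepared in duplicate) and 1 array from another line made independently (line B, array B). Per the design text, cells with a conditional GCN5 allele received a retrovirus carrying Cre recombinase, which removes that allele, or an empty vector, so GCN5-/- was read here as Cre and GCN5+/- as vector, and virus and genotype cannot be told apart. P-values over both lines rest partly on the duplicate RNAs of line A. Those within line A, or for the difference in effect between lines, rest on them wholly, since line B has 1 array per genotype.

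The endoplasmic reticulum (ER) folds secreted and membrane proteins, and fibroblasts that secrete matrix depend on it. When unfolded proteins build up, the membrane sensors IRE1 (gene Ern1), PERK (gene Eif2ak3) and ATF6 raise the transcription of chaperones, of folding enzymes and of the ER-associated degradation (ERAD) machinery that removes misfolded proteins. PERK, like the other kinases of the integrated stress response, also slows translation and favours production of ATF4, a transcription factor that switches on amino acid synthesis and transport genes. IRE1 acts by splicing Xbp1 mRNA, and the signals here do not separate its spliced and unspliced forms.

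The promoters of several members carry the ER stress response element (ERSE), the letters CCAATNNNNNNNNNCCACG, whose CCAAT end binds NF-Y and whose CCACG end binds ATF6. RefSeq promoter windows of GRCm38.p6 were available for 28 of the 32 members (not for Atf6, Hyou1, Manf and Slc7a5), each running from 250 bases before a transcript's start to 50 bases after it. Searched on both strands, ERSE was found in the windows of 7 of these 28 genes, against 0.137% of the 27025 genes with a window and 0.119% of all 32851 windows. The matches ended between 46 and 193 bases before the start. Hsp90b1 held 2 of them. They are shown with 10 bases on each side, as the gene's strand reads, because they mark which chaperone genes share a sequence; capitals mark the fixed letters, and CGTGG before ATTGG is a match on the opposite strand.
Pdia6 ERSE, chr12:17266481-17266519, plus strand: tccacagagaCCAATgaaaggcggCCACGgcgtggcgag
Hsp90b1 ERSE, chr10:86705523-86705561, minus strand: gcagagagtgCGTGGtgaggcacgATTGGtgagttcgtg
Hsp90b1 ERSE, chr10:86705628-86705666, minus strand: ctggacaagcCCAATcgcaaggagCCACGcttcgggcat
Creld2 ERSE, chr15:88819510-88819548, plus strand: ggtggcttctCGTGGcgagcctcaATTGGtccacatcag
Calr ERSE, chr8:84847065-84847103, minus strand: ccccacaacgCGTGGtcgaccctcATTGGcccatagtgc
Hspa5 ERSE, chr2:34772015-34772053, plus strand: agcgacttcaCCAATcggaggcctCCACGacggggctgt
Canx ERSE, chr11:50325790-50325828, minus strand: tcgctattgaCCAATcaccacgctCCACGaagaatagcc
Dnajc3 ERSE, chr14:118937817-118937855, plus strand: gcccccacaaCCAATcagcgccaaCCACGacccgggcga

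A related element, ERSE-II (ATTGG and CCACG set 1 base apart, both strands), was found in 1 of the 28, Herpud1, against 0.0444% of all genes. An ATF4-type element (TGATGCAA, both strands, here called CARE) was found in Chac1 and Herpud1, against 1.03% of all genes. Only these fixed letters were searched, so variants of them were not counted. The Asns window holds TGATGAAA, and the Trib3 window and a Psat1 window hold TGGTGCAA. Each differs from TGATGCAA by 1 letter and was not counted as a match. These are examples, since such variants were not searched for in all windows. The letters TGACGTGG, the element bound by XBP1 and ATF6, were in none of the 28 windows and in 0.714% of all genes. The matches in Herpud1 and Chac1 are given to show the elements outside the chaperone group; TTGCATCA is the CARE read on the opposite strand.
Herpud1 ERSE-II, chr8:94386367-94386397, plus strand: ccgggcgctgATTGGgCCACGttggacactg
Herpud1 CARE, chr8:94386307-94386334, plus strand: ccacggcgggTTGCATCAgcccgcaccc
Chac1 CARE, chr2:119351039-119351066, plus strand: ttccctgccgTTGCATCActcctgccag

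The 250 bases before the start are printed for Pdia6 and Hspa5, which hold 1 ERSE each and are set side by side below, and for Xbp1, whose window held none of the 4 elements. No match says only that these letters are not in the window.
Pdia6, chr12:17266339-17266588, plus strand: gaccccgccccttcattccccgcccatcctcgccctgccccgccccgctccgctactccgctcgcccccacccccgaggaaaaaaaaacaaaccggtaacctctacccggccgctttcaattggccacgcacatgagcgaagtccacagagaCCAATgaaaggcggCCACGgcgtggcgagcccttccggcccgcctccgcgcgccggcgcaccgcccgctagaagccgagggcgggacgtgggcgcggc
Hspa5, chr2:34771840-34772089, plus strand: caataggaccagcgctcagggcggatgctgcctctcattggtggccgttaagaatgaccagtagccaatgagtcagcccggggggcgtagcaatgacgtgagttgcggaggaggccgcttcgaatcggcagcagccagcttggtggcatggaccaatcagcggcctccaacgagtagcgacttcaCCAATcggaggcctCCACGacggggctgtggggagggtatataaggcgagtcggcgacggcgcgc
Xbp1, chr11:5520391-5520640, plus strand: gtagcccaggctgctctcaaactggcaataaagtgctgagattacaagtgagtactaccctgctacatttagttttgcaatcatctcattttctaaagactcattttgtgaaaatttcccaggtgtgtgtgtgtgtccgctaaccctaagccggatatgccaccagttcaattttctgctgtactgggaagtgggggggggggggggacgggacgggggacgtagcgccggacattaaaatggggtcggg

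Array medians of log2 signal lay between 7.41 and 7.46 and no array stood apart. Kat2a, the gene of GCN5, had log2 signals of 7.97, 7.85 and 7.75 in GCN5-/- arrays A1, A2 and B, against 9.31, 10.07 and 11.51 in GCN5+/- arrays at 1422972_s_at, and its other probe sets had fitted changes of -0.75 (1422971_at, called) and 0.18 (1426783_at, not called). At 1426783_at the lines had opposite signs, 0.47 within line A (limma adjusted p = 0.0232) and -0.41 in pair B. Which of them the deletion removes is not known here. Of 9 fibroblast markers, 4 fell (Col1a1, Col3a1, Pdgfra and Pdgfrb) and none rose, where 4.31% of all tested probe sets fell and 4.2% rose. The mean log2 signal of the list was 12.97 to 13.03 in GCN5-/- arrays and 13.17 to 13.20 in GCN5+/- arrays. S100a4 was higher in pairs A1, A2 and B, by 0.34, 0.50 and 0.27, without a call (limma adjusted p = 0.0763). The brightest probe sets of the rest had 0.03 (Fn1), 0.07 (Vim), -0.20 (Col1a2) and -0.32 (Thy1), none called. Thy1, a surface marker of many fibroblasts, had 6.02 to 6.21 in the line A arrays and 8.60 and 9.54 in GCN5-/- and GCN5+/- line B. Of 7 macrophage and leukocyte markers 4 were tested and 1 rose, Cd53. The list means were 7.28 to 7.55 in GCN5-/- and 7.07 to 7.25 in GCN5+/- arrays. Csf1r (0.48, 0.48 and 0.12) and Cd68 (0.56, 0.16 and 0.43) were also higher in pairs A1, A2 and B, without a call. The other Csf1r probe sets were lower in pair B. Cd14 had a fitted change of 0.07 and was not called. Ptprc, Itgam and Adgre1 stayed below the level filter. Only 1 of 4 endothelial, 3 of 5 epithelial and 1 of 4 skeletal muscle markers were tested, and none was called. The part of these marker shifts in the results below was not tested.

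Signals are on the log2 scale, so a difference of 1 is a doubling, and levels are not compared between genes. A probe set was tested where its mean log2 signal reached 6.80, the 40th percentile, and is said to rise, fall or be called where its adjusted p in the limma model of genotype and line was under 0.05 over all tested probe sets. Changes are GCN5-/- minus GCN5+/- with the standard error of the fit.

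In GCN5-/- cells, Xbp1, the transcription factor downstream of IRE1, and 3 ER folding genes, Pdia6, Manf and Hsp90b1, fell by 0.26 to 0.59 on the log2 scale, while Atf6 rose by 0.55. None of the 9 ATF4 and amino acid genes was called. By brightest probe set, 5 of 32 members passed the test (1 higher, 4 lower), where 8.51% of all 27022 tested probe sets were called, 4.2% higher and 4.31% lower. The other 27 members were not called. The median change was -0.10 over the members and -0.01 over all tested probe sets. The fitted change was below 0 for 24 members and above 0 for 8, against 51.5% and 48.5% of all tested probe sets. In 17 members the 3 pairs had the same sign, 14 lower and 3 higher, against 48.6% of all tested probe sets, 25.3% lower and 23.4% higher. In 7 members the GCN5-/- and GCN5+/- arrays did not overlap, 6 lower and 1 higher, against 17% of all tested probe sets, 8.79% lower and 8.2% higher. A lower signal in bulk RNA cannot separate fewer cells that express a gene from less RNA per cell.

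**Figure D1:**
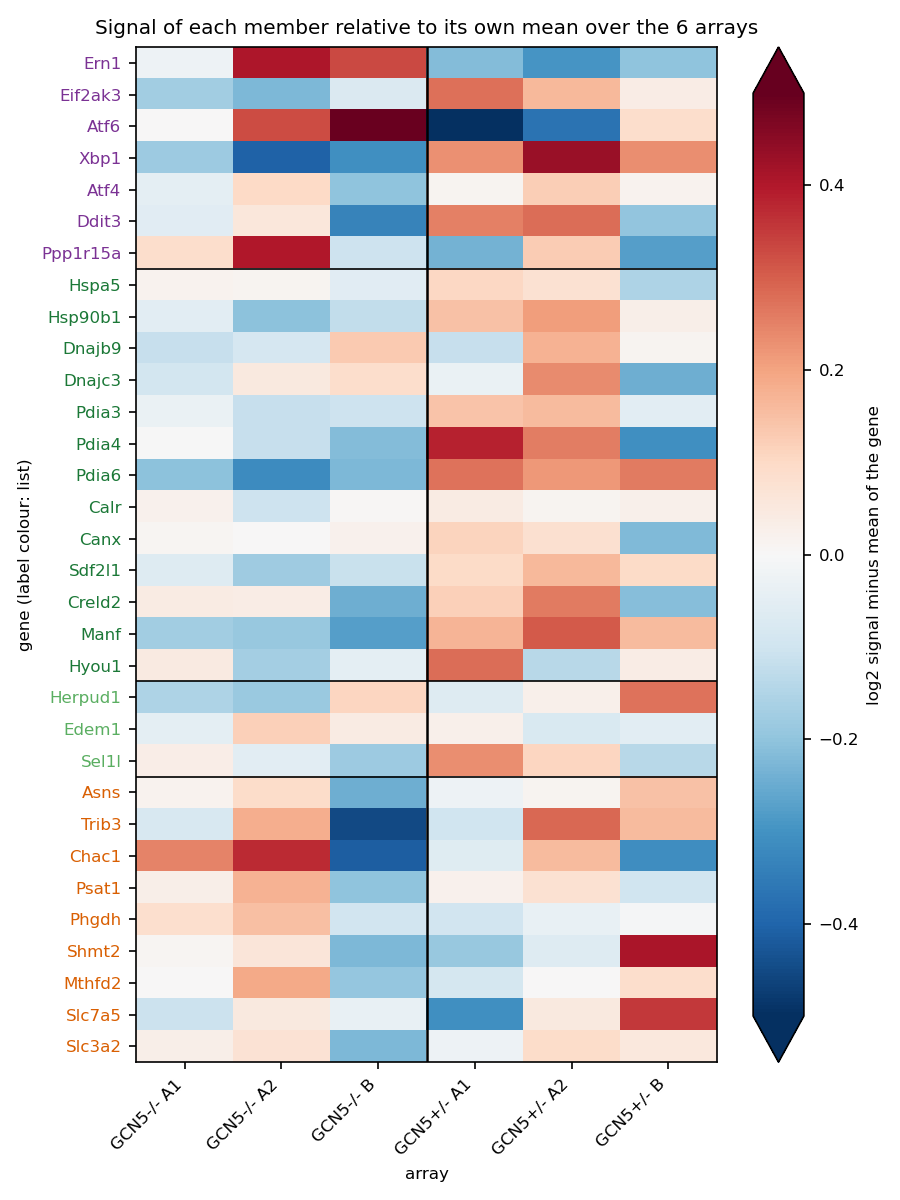
Log2 signal of each of the 32 members (rows, brightest probe set, label colour giving the list) in each array (columns, GCN5-/- left of GCN5+/-), as the difference from the gene's own mean over the 6 arrays; the colour scale ends at 0.5. Xbp1, Pdia6, Manf and Hsp90b1 are lower in every GCN5-/- array than in every GCN5+/- array, and most amino acid genes have their lowest value in GCN5-/- B.

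Among the sensors and transcription factors, Xbp1 was the member called lower at its brightest probe set. At 1420886_a_at its log2 signal was 12.46, 12.24 and 12.34 in GCN5-/- arrays A1, A2 and B, against 12.87, 13.08 and 12.88 in the GCN5+/- arrays. All GCN5-/- arrays lay below all GCN5+/- arrays. The fitted change was -0.59 ± 0.08 (log2, SE; limma adjusted p = 0.00513), a fold of 0.662. The other Xbp1 probe sets fell alike at 1437223_s_at (-0.56 ± 0.07, limma adjusted p = 0.00322) and 1420011_s_at (-0.63 ± 0.10, limma adjusted p = 0.00971), and 1420012_at had -0.42 ± 0.12 without a call (limma adjusted p = 0.0748). The call of 1420886_a_at was lost without a line term (limma adjusted p = 0.0867), and 15 of its 16 alternatives kept it.

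Atf6, whose product is cut from the ER membrane to become a transcription factor, went the other way. At 1435444_at it had 9.54, 9.87 and 10.03 in GCN5-/- A1, A2 and B, against 8.9996, 9.17 and 9.63 in GCN5+/- cells. The groups overlapped, with line B above line A in both genotypes, and GCN5-/- was higher in each pair, by 0.55, 0.70 and 0.40. The fitted change was 0.55 ± 0.12 (limma adjusted p = 0.0301). Probe set 1456021_at rose by 0.39 ± 0.09 (limma adjusted p = 0.0388), and 1453288_at had 0.09 ± 0.12 and was not called (limma adjusted p = 0.725). The call of 1435444_at was lost under 8 of its 16 alternatives, where the adjusted p reached 0.390.

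Ern1, the gene of IRE1, which splices Xbp1 mRNA, had 9.60, 10.03 and 9.95 in GCN5-/- A1, A2 and B, against 9.41, 9.33 and 9.42 in GCN5+/- cells at 1437119_at. The groups did not overlap, and the change of 0.47 ± 0.12 just missed the threshold (limma adjusted p = 0.0550), which it passed with the replicate block (limma adjusted p = 0.0491). Its other tested probe sets had 0.00 ± 0.09 (1421240_at) and 0.35 ± 0.18 (1438583_at). Ern1 and Xbp1, neighbours in the pathway, thus had fitted changes of opposite sign, the first not called.

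Eif2ak3, the gene of PERK, had 9.88, 9.83 and 9.98 in GCN5-/- A1, A2 and B, against 10.33, 10.22 and 10.09 in GCN5+/- cells, without overlap, and a change of -0.32 ± 0.10 that was not called (limma adjusted p = 0.0948). Its pair differences were -0.45 and -0.39 in line A and -0.11 in line B. Atf4, whose protein is controlled mostly at translation, had 13.69, 13.84 and 13.54 in GCN5-/- and 13.75, 13.86 and 13.76 in GCN5+/- cells, a change of -0.10 ± 0.06 (limma adjusted p = 0.346). The Atf4 groups overlapped.

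Ddit3, which encodes the stress factor CHOP, gave probe sets that disagree in size. The brighter, 1417516_at, had 10.80, 10.91 and 10.52 in GCN5-/- A1, A2 and B, against 11.10, 11.13 and 10.65 in GCN5+/- cells, with a change of -0.22 ± 0.08 (limma adjusted p = 0.134). The dimmer, 1443897_at, had 8.79, 8.40 and 8.03 in GCN5-/- and 9.63, 9.44 and 8.62 in GCN5+/- cells, and fell by 0.82 ± 0.14 (log2, SE; limma adjusted p = 0.0121). All 3 pairs were lower at both, and what the dimmer probe set measures apart from the brighter one is not given here. Ppp1r15a, the phosphatase subunit that ends the translation block, had 0.26 ± 0.12 and was not called (limma adjusted p = 0.256), with pair differences of 0.32, 0.27 and 0.17.

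**Figure D2:**
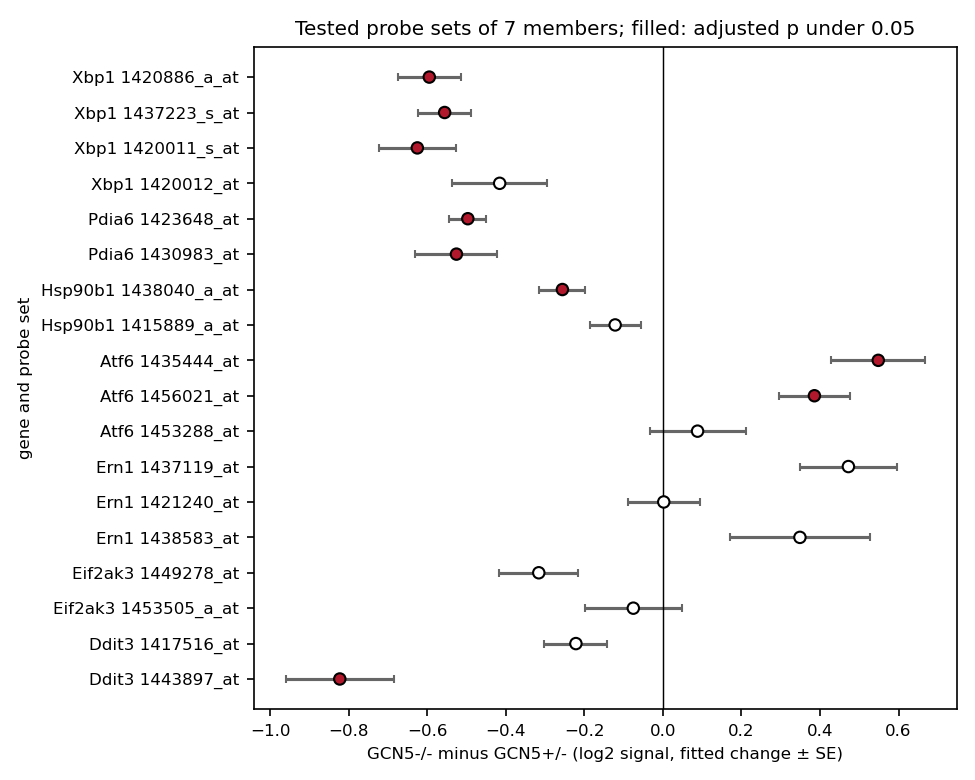
Fitted log2 change, GCN5-/- minus GCN5+/-, with its standard error for every tested probe set of 7 members, filled where the adjusted p was under 0.05. Of the 4 Xbp1 probe sets 3 are filled and all lie below 0, while the Ddit3 and Ern1 probe sets differ in size, at -0.22 and -0.82 and between 0.00 and 0.47.

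Of 13 ER chaperones and folding enzymes, 3 fell, 0 rose and 10 were not called, with a median of -0.12, where 4.31% of all tested probe sets fell and 4.2% rose. Pdia6, a protein disulfide isomerase that rearranges disulfide bonds, had 13.17, 13.06 and 13.15 in GCN5-/- A1, A2 and B against 13.65, 13.59 and 13.64 in GCN5+/- cells. The pair differences of -0.48, -0.53 and -0.48 were nearly the same in both lines, and the fitted change was -0.50 ± 0.05 (log2, SE; limma adjusted p = 0.00109), a fold of 0.709. A much dimmer Pdia6 probe set, 1430983_at, fell by 0.53 ± 0.10 (limma adjusted p = 0.0226). Pdia6 stayed called under all 16 of its alternatives, with adjusted p up to 0.0489.

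Manf, a small secreted ER protein made under stress, had 12.30, 12.29 and 12.20 in GCN5-/- A1, A2 and B against 12.65, 12.78 and 12.63 in GCN5+/- cells. The groups did not overlap, and the change was -0.42 ± 0.06 (limma adjusted p = 0.00590), a fold of 0.745. Hsp90b1, the ER chaperone GRP94, had 13.29, 13.14 and 13.22 in GCN5-/- A1, A2 and B against 13.49, 13.55 and 13.37 in GCN5+/- cells at 1438040_a_at. The groups lay apart by less than in Manf, and the fall was small, by 0.26 ± 0.06 (limma adjusted p = 0.0354). Its other probe set, 1415889_a_at, had -0.12 ± 0.06 and was not called (limma adjusted p = 0.302). The Hsp90b1 call was lost under 10 of 16 alternatives, with adjusted p up to 0.260, and that of Manf under 2, with adjusted p up to 0.107.

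**Figure D3:**
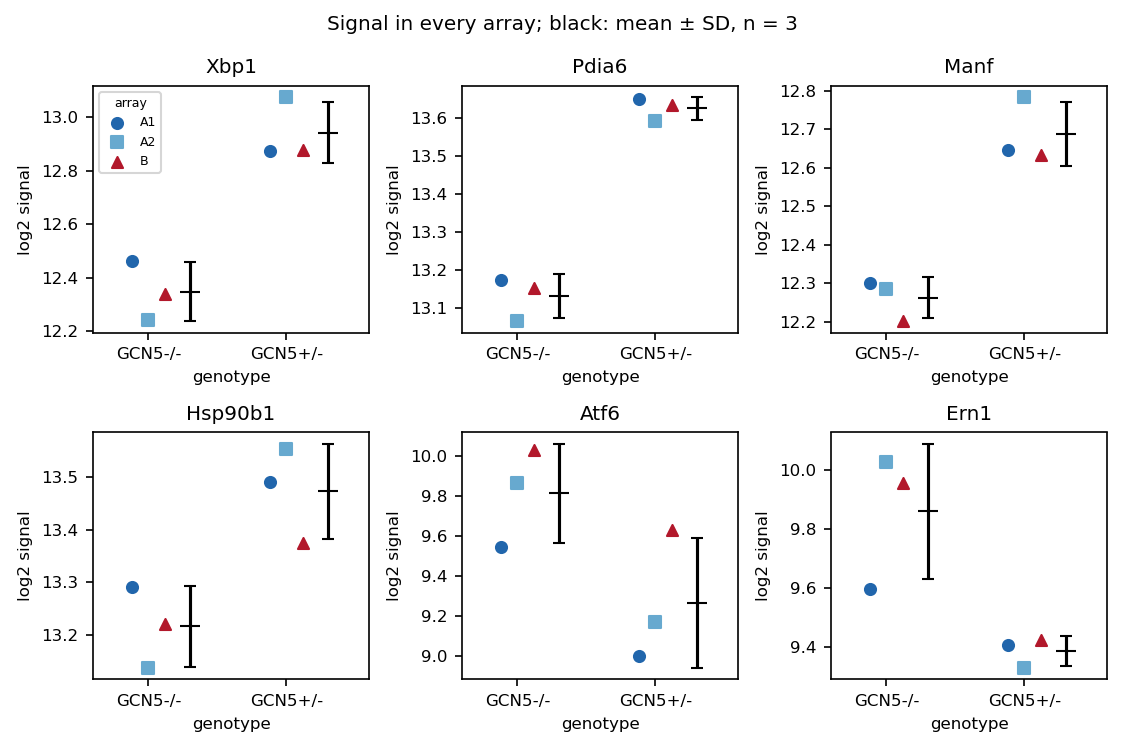
Log2 signal of 6 members in every array, GCN5-/- left of GCN5+/-, with the mean ± SD of the 3 arrays in black; the axes do not start at 0 and differ between genes. Xbp1, Pdia6, Manf and Hsp90b1 are lower and Ern1 higher in all GCN5-/- arrays, and for Atf6 line B (triangles) is the highest in each genotype.

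Hspa5, the gene of BiP, the chaperone that holds the sensors inactive, differed little. It had 14.22, 14.22 and 14.14 in GCN5-/- A1, A2 and B, against 14.30, 14.28 and 14.05 in GCN5+/- cells, with overlapping groups. The change was -0.01 ± 0.04 (limma adjusted p = 0.878), and its other probe sets had -0.02 (1427464_s_at) and -0.06 (1447824_x_at). Hspa5 and Pdia6, both with an ERSE in the windows printed above, thus differed in their fitted change, -0.01 against -0.50.

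The lectin chaperones Calr and Canx, which hold glycoproteins during folding, had -0.05 ± 0.04 and 0.02 ± 0.07. The other members of this group that were not called had fitted changes of -0.24 (Sdf2l1, which works with BiP in protein folding), -0.22 (Pdia4), -0.17 (Pdia3, the disulfide isomerase partner of calreticulin and calnexin), -0.12 (Hyou1, an exchange factor for BiP), -0.11 (Creld2), -0.05 (Dnajb9) and 0.03 (Dnajc3), the last 2 being cochaperones of BiP. Of these, Sdf2l1 had groups that did not overlap, at 10.82, 10.71 and 10.78 in GCN5-/- and 10.98, 11.05 and 10.99 in GCN5+/- cells (limma adjusted p = 0.108). Probe sets of Dnajc3 disagreed in sign, between -0.25 (1449372_at) and 0.03, and none was called.

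Of the 7 genes with an ERSE, Pdia6 and Hsp90b1 fell, the latter with a call lost under 10 of 16 alternatives. The other 5 were not called, with changes between -0.11 (Creld2) and 0.03 (Dnajc3). Outside the members, 10 tested genes had an ERSE in their window, of which 1 fell and 0 rose. Over all tested probe sets 4.31% fell and 4.2% rose. These counts are small, and a link between the element and the changes was not tested. Of the ERAD genes none was called: Herpud1, an ER membrane component of the degradation complex, had -0.15 ± 0.06 (limma adjusted p = 0.180), Sel1l, its adaptor, -0.14 ± 0.08, and Edem1, a lectin that picks misfolded glycoproteins, 0.07 ± 0.08. A second Edem1 probe set, 1424065_at, had -0.24 with groups that did not overlap, and was not called (limma adjusted p = 0.132).

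None of the 9 ATF4 and amino acid genes was called by limma for genotype, where 8.51% of all tested probe sets were, and their median change was -0.06. Among them 0 had an unadjusted p under 0.05, against 6596 of all 27022 tested probe sets. With 9 genes, nothing is read from these counts. The fitted changes lay between -0.23 (Trib3, a pseudokinase that feeds back on ATF4) and 0.14 (Chac1, which degrades glutathione). Asns, asparagine synthetase, had 13.11, 13.18 and 12.85 in GCN5-/- A1, A2 and B, against 13.07, 13.11 and 13.24 in GCN5+/- cells. In line A the genotypes were close, and in line B the GCN5-/- array was the lowest and the GCN5+/- array the highest of the 6. The change over both lines was -0.09 ± 0.09 (limma adjusted p = 0.601).

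**Figure D4:**
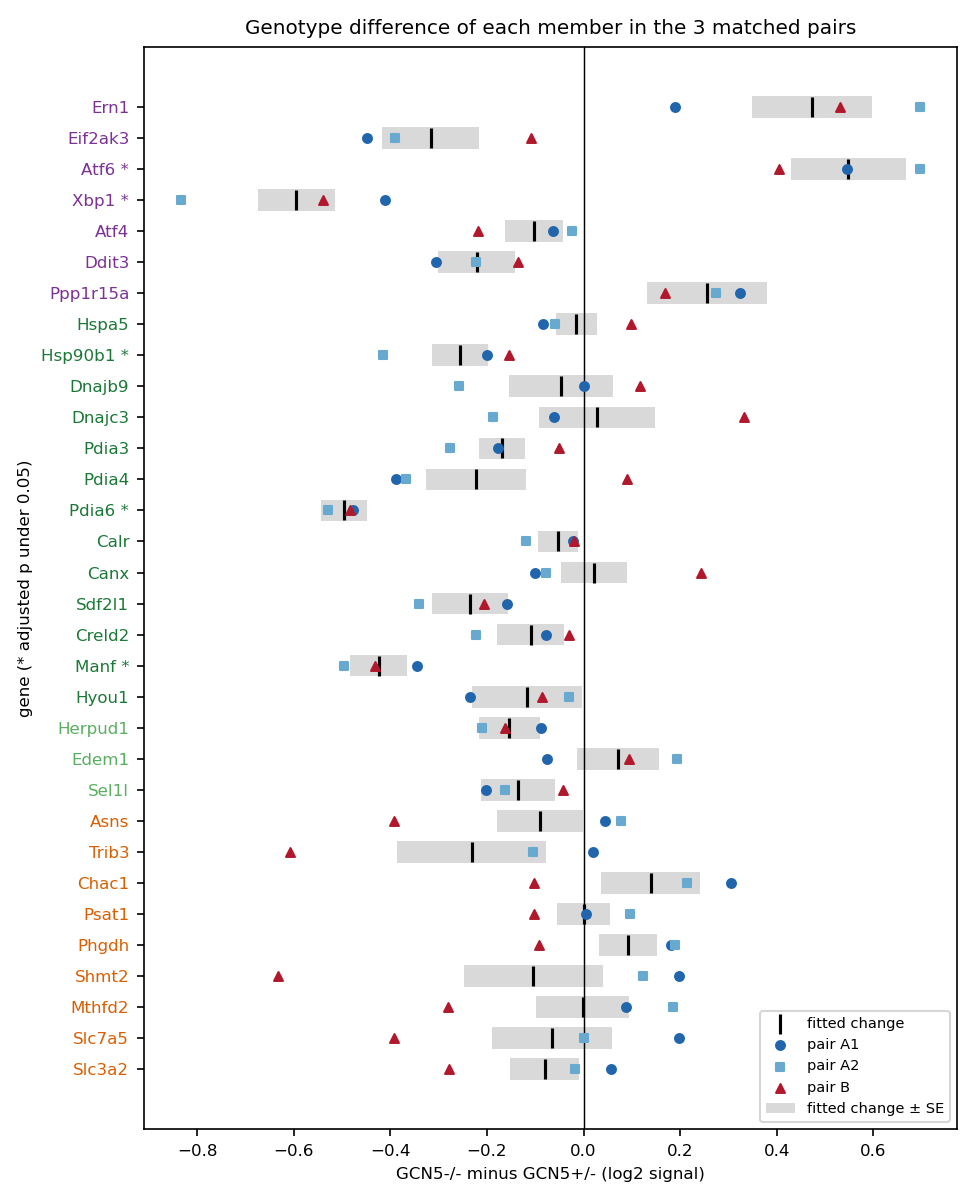
GCN5-/- minus GCN5+/- log2 difference of each member in pairs A1, A2 and B (points), with the fitted change (black bar) and its standard error (grey), asterisks marking adjusted p under 0.05. Pair B lies left of 0 for all 9 amino acid genes at the bottom, and the pairs coincide for Pdia6 at -0.48, -0.53 and -0.48.

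The lines were then compared. Within line A, 8 members were called (2 higher, 6 lower), where 8.59% of all tested probe sets were, 4.2% higher and 4.39% lower. Both arrays of a genotype are duplicate RNAs of this 1 line, so these calls are set against the spread between RNA preparations and not between independent lines. Beside Atf6, Xbp1, Pdia6, Manf and Hsp90b1 these were Pdia3 (-0.23 ± 0.04, limma adjusted p = 0.0151), Pdia4 (-0.38 ± 0.08, limma adjusted p = 0.0307) and Phgdh, which commits a glycolytic intermediate to serine (0.18 ± 0.04, limma adjusted p = 0.0360). With no variance trend in the fit, 0 members were called within line A, and 984 probe sets in all.

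Pdia4 showed the contrast most plainly among the folding enzymes. It had 11.86 and 11.75 in GCN5-/- A1 and A2 against 12.25 and 12.12 in GCN5+/- A1 and A2, but 11.65 in GCN5-/- B against 11.56 in GCN5+/- B. The line A pairs were lower and the line B pair higher. Pdia3 had 13.97, 13.89 and 13.90 in GCN5-/- A1, A2 and B, against 14.15, 14.16 and 13.95 in GCN5+/- cells, so all 3 pairs were lower and the line B pair by the least.

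Phgdh showed the reverse, with 14.03 and 14.09 in GCN5-/- A1 and A2 against 13.85 and 13.91 in GCN5+/- A1 and A2, and 13.85 in GCN5-/- B against 13.94 in GCN5+/- B. Its 4 probe sets were all called within line A, and pair B differed in sign among them, between -0.09 and 0.08. Shmt2, the mitochondrial enzyme that takes a carbon unit from serine, had 12.44, 12.49 and 12.20 in GCN5-/- A1, A2 and B, against 12.24, 12.37 and 12.83 in GCN5+/- cells. Its pair differences were 0.20 and 0.12 in line A and -0.63 in line B.

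For 7 of the 9 ATF4 and amino acid genes both line A pairs were higher and the line B pair lower, a pattern found at 11.6% of all tested probe sets. Trib3 and Slc3a2, which forms an amino acid transporter with Slc7a5, were the exceptions, through pair A2. Trib3 had -0.61 in pair B, with 10.15 in GCN5-/- and 10.76 in GCN5+/- cells. The median difference of the 9 genes was 0.09 for pair A1, 0.10 for pair A2 and -0.28 for pair B. Leaving out either line B array leaves the fitted change to line A alone, so it is no separate check. The median of their fitted changes was then 0.10, against -0.06 with all arrays. The reverse pattern, lower in both line A pairs and higher in line B, was found in 4 of 13 chaperones and folding enzymes (Hspa5, Dnajc3, Pdia4 and Canx) and in 10.7% of all tested probe sets. Over the 16 chaperone, folding and ERAD genes the medians were -0.13, -0.22 and -0.04 in pairs A1, A2 and B.

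The difference itself, the effect in line B minus that in line A, was below 0 for all 9 ATF4 and amino acid genes and above 0 for 14 of the 16 chaperone, folding and ERAD genes, where 49.8% of all tested probe sets were below 0 and 50.2% above. By limma none of the 32 members was called for this difference at an adjusted p under 0.05, and 0.0481% of all tested probe sets were, 0.0222% above 0 and 0.0259% below. At an unadjusted p under 0.05 there were 10 members. The share of all tested probe sets at that looser threshold was not counted, so nothing is read from the 10. Shmt2 came closest at -0.79 ± 0.12 (log2, SE; limma adjusted p = 0.0972), then Asns at -0.45 ± 0.09 (limma adjusted p = 0.177) and Canx at 0.33 ± 0.07 (limma adjusted p = 0.239). Leaving out GCN5+/- A2, GCN5-/- A1 or GCN5-/- A2 gave 1 called member each. All members share the single line B array of each genotype, so their differences are not separate observations of line B.

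**Figure D5:**
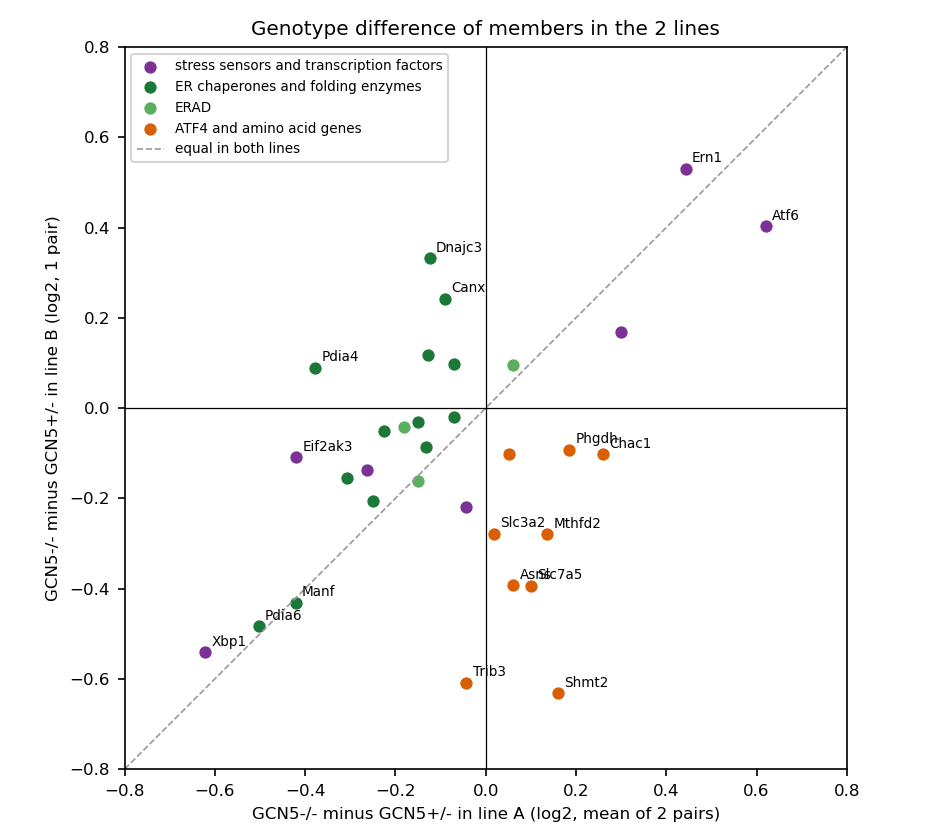
GCN5-/- minus GCN5+/- log2 difference of each member in line A (horizontal, mean of 2 pairs) against line B (vertical, 1 pair), coloured by list, with the dashed line marking equal differences. Xbp1, Pdia6, Manf and Ern1 lie near the dashed line, Atf6 lies below it (line A 0.62, line B 0.40), and all 9 amino acid genes lie below it, Shmt2 and Trib3 with -0.63 and -0.61 in line B.

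Between the lines themselves 8 of 32 members were called (2 higher, 6 lower in line B), where 23.1% of all tested probe sets were, 11.6% higher and 11.5% lower. With the line A duplicates averaged, 3 members were called between lines, against 8 with the duplicates as separate arrays. Chac1 differed most, with 11.15 and 11.26 in line B and 11.51 to 11.94 in line A, a difference of -0.54 ± 0.11 (line B minus line A, log2, SE; limma adjusted p = 0.00899). Ddit3 (-0.40 ± 0.09), Pdia4 (-0.39 ± 0.11), Creld2 (-0.34 ± 0.07), Psat1, a serine synthesis enzyme (-0.22 ± 0.06), and Hspa5 (-0.16 ± 0.04) were also lower in line B. Atf6 (0.44 ± 0.13) and Herpud1 (0.28 ± 0.07) were higher, Herpud1 with 12.01 and 12.17 in line B and 11.72 to 11.93 in line A. Slc7a5, the large neutral amino acid transporter (0.24 ± 0.13), and Shmt2 (0.14 ± 0.15) had the next largest positive differences and were not called. For Xbp1, Pdia6 and Manf, which fell in GCN5-/- cells, the lines differed by -0.06, 0.02 and -0.09 and none was called between lines.

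Further genes of the pathway were read from lists of 106 symbols, of which 100 were on the arrays and 99 tested. By brightest probe set 10 were called, 6 higher and 4 lower, a share close to the 8.51% of all tested probe sets, so the genes below are described singly and nothing is read from their number. Eif2ak2, the gene of the double-stranded RNA kinase PKR, which feeds the integrated stress response and is also an interferon-induced gene, changed most. It had 11.27, 11.33 and 11.26 in GCN5-/- A1, A2 and B, against 9.86, 10.32 and 9.99 in GCN5+/- cells at 1422005_at, a rise of 1.23 ± 0.12 (limma adjusted p = 0.00121), and its other probe sets 1422006_at and 1440866_at rose by 1.38 and 1.55. It was the single call among 20 tested further sensing and signalling genes.

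Of 26 further folding, glycan and translocon genes, 1 rose and 2 fell. Ero1a, the oxidase that recharges disulfide isomerases, rose by 0.60 ± 0.10 (limma adjusted p = 0.0127). It has 3 probe sets, which were not all called. Sec61b, a subunit of the channel through which proteins enter the ER, fell by 0.31 ± 0.04 (limma adjusted p = 0.00435), and Pdia5 by 0.32 ± 0.08 (limma adjusted p = 0.0454). Sec61b had 13.41, 13.38 and 13.23 in GCN5-/- A1, A2 and B against 13.72, 13.69 and 13.55 in GCN5+/- cells, without overlap. Dimmer probe sets of Ssr1, of the translocon-associated complex, and of Dnajc10, an ER reductase, were also called lower, by 0.26 and 0.25.

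Of 16 further ERAD genes, Selenok, a selenoprotein of the ER membrane, fell by 0.45 ± 0.07 (limma adjusted p = 0.00845), and Ube2g2, a ubiquitin-conjugating enzyme, rose by 0.27 ± 0.07 (limma adjusted p = 0.0445). Each has 2 probe sets, and 3 probe sets of this list were called, so 1 of these genes was called at its brightest alone. Of 24 further ATF4 targets and amino acid genes, 2 rose and 1 fell. Shmt1, the cytosolic counterpart of Shmt2, rose by 0.73 ± 0.10 (limma adjusted p = 0.00637) at its brightest of 4 called probe sets. It was higher in all 3 pairs, with 10.32, 10.51 and 10.61 in GCN5-/- against 9.56, 9.63 and 10.07 in GCN5+/- cells. Slc7a1, a cationic amino acid transporter, rose by 0.34 ± 0.06 (limma adjusted p = 0.0176), and the lipoprotein receptor Vldlr fell by 0.46 ± 0.10 (limma adjusted p = 0.0267). Slc7a1 has 3 probe sets and Vldlr 6, and these were not all called. In this list 8 of 54 tested probe sets were called, with 4 of them from Shmt1. Slc38a2, a glutamine transporter, was called lower at a dimmer probe set, 1429593_at, by 0.50, and not at its brightest. Ssr1, Dnajc10 and Slc38a2 were chosen after their values were seen.

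Of 13 tRNA charging and export genes, Wars, the tryptophanyl-tRNA synthetase, which interferon also induces, rose by 0.35 ± 0.08 (limma adjusted p = 0.0363), and no other was called. Wars has 4 probe sets, and only its brightest was called. The effect in line B minus that in line A was below 0 for 20 of the 24 further ATF4 targets. It was also below 0 for 11 of the 13 tRNA genes, against 49.8% of all tested probe sets. By limma 0 genes of either list were called for this difference in effect, with 11 and 1 at an unadjusted p under 0.05. The share of all tested probe sets at that unadjusted threshold was not counted, so nothing is read from the 11 and 1. Psph, the last enzyme of serine synthesis, had 12.19, 12.38 and 11.60 in GCN5-/- A1, A2 and B, against 11.87, 11.96 and 11.91 in GCN5+/- cells. The cystine transporter Slc7a11 had 8.04, 8.29 and 7.49 in GCN5-/- and 7.62, 7.70 and 7.98 in GCN5+/- cells. Both were higher in the line A pairs and lower in the line B pair; these 2 genes were chosen after their values were seen.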

How the data were processed

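Total RNA of 6 cultures was labelled with biotin and measured on Affymetrix arrays. The authors deposited 1 log2 signal for each probe set; that the scale is log2 was inferred from its range of 3.13 to 15.2. Tools named per the submitters' processing notes were MAS5 (6 samples) and Partek (1 sample), with neither version nor role. How the signals were normalized, background-corrected or filtered is not given in the sources. Scaling of arrays to each other removes a change shared by most genes.

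Of 45101 probe sets 64 controls were left out. Those with a mean log2 signal at or above the 40th percentile (6.80), 27022 in all, were tested with limma 3.58.1 in R 4.3.3 (lmFit, eBayes with trend), genotype with line as covariate, and Benjamini-Hochberg adjustment over all of them, with an adjusted p under 0.05 called. The line B minus line A difference in effect was the genotype-by-line term of a second fit with 2 residual degrees of freedom, which also gave the effect within line A. Probe sets were named by the platform annotation, with symbols updated through RefSeq: 34945 had 1 symbol, 932 several (not used) and 9160 are unnamed here. A gene is given by its brightest probe set over all arrays; others are given where they differ. Values in every array are given for called members, the 6 largest changes, Hspa5, Atf4, Ddit3, Xbp1 and Asns, the largest line differences, and up to 4 called genes per further list and direction. The members and lists were chosen with earlier results of these data known. The fit was run on simulated data in which the noise of all 6 arrays was independent. That run cannot show how far the p-values depend on the duplicate RNAs of line A. The arrays' number limits the precision.

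Same-named arrays come from the same line, and their deviations from the group means correlated at 0.714 (A1), 0.727 (A2) and 0.846 (B). These deviations hold the line difference too, and differently named line A arrays correlated at 0.443 and 0.509. In the residuals of the fit with line, the values were 0.202 (A1) and 0.169 (A2), against -0.557 and -0.465 for differently named line A arrays. The replicate block was run as a paired alternative and gave 6 called members. No pair of arrays shared more than 62 identical values.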

Additional observations from a re-analysis of the deposited data

How the results depend on the processing

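The genotype test gave 5 called members. There were 1 with no line term, 3 when line entered as a random block and 2 with the line A duplicates averaged, beside 69, 532 and 709 of all probe sets against 2299. Leaving out 1 array gave 3 to 8 members and 645 to 2309 probe sets. It gave 3 members without GCN5-/- A2, GCN5+/- A1 or GCN5+/- A2, and 4 without GCN5-/- A1. Without either line B array 8 were called, but the fitted change is then that of line A alone. These fits repeat the line A effect and are no separate check. With the replicate block there were 6 called members against 5, Ern1 being the added one, and no other call of a member changed. The 8 members called between lines became 3 with averaged duplicates and 5 with no variance trend, and 4 to 7 with 1 array left out (all probe sets 3025 to 5379 against 6246). For the difference in effect between lines, 13 probe sets were called, against 4 after quantile normalization, 23 with arrays centred on their median, 27 with no level filter, 4 with the filter at the 60th percentile and 0 with no variance trend. With 1 line A array left out it gave 55 to 104 probe sets and 0 to 1 members. Within line A, the 8 members and 2322 probe sets became 0 and 984 with no variance trend, and 5 to 9 members with 1 array left out. The causes were not tested.

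Pdia6 was called under all 16 alternatives, Xbp1 under 15, Manf under 14, Atf6 under 8 and Hsp90b1 under 6. Members not called in the main analysis were called under some: Ern1 in 4, Pdia3 in 3, Pdia4 and Phgdh in 2 each, and Ddit3 in 1, with the mean over its probe sets (-0.52, limma adjusted p = 0.00806). The 16 alternatives include the 2 fits without a line B array, whose fitted change is that of line A alone. Changes of sign concerned members that were not called. Hspa5 was 0.0132 with averaged duplicates. After quantile normalization Hspa5, Psat1 and Mthfd2 were 0.00238, 0.00417 and 0.00832, and with median-centred arrays Psat1 and Mthfd2 were 0.00742 and 0.00529. With the mean over all probe sets, Dnajc3 was -0.0680, Canx -0.0174, Edem1 -0.0852, Psat1 0.0177 and Mthfd2 0.00987. With 1 array left out the ranges were -0.0714 to 0.00911 (Hspa5), -0.13 to 0.0589 (Dnajb9), -0.12 to 0.15 (Dnajc3), -0.0896 to 0.0613 (Canx), -0.23 to 0.00627 (Hyou1), -0.15 to 0.0611 (Asns), -0.0558 to 0.0509 (Psat1), -0.22 to 0.16 (Shmt2), -0.10 to 0.14 (Mthfd2), -0.14 to 0.0188 (Slc3a2) and -0.21 to 0.10 (Slc7a5).

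Line B has 1 array per genotype, so its spread is assumed to be that of line A, and a difference between lines cannot be told apart from 1 pair of RNAs. The fits with no line term, with either block or with averaged duplicates give no genotype-by-line term. Background correction and slide could not be varied with the files used here.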
